A study of Mus musculus with 8 samples.

Results

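Contractile and focal adhesion genes were followed in mouse embryonic fibroblasts with and without the transcription factor Stat3. The set was fixed by name as 10 genes, and every probe set whose single annotated symbol was one of them was taken. Of the 10 genes 9 were found among the 8251 genes annotated, with 12 of the 10833 probe sets that carry 1 symbol. Srf had no such probe set in the annotation used here and its level was not analysed. The samples were 8 arrays in 4 groups of 2, all from spontaneously immortalised fibroblast lines. They comprised Stat3 KO cells (STAT3-/-) given oncostatin M (OSM), untreated Stat3 KO cells, Stat3 WT cells (STAT3+/+) given OSM, and untreated Stat3 WT cells. OSM was given at 20 ng/ml for 30 minutes, and it acts through the receptor subunit gp130 on Stat3 and the MAP kinases. Treatment was read from the titles, since the text on cell growth describes OSM for all samples. The labels name 1 line per genotype, so the loss of Stat3 and other differences between the lines cannot be told apart.

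Fibroblasts pull on their surroundings through stress fibres, bundles of actin and myosin that end at focal adhesions. There the integrins bind fibronectin and collagen outside the cell, and adaptor proteins such as vinculin tie them to actin inside it. Many of the genes are switched on by serum response factor (Srf) with its actin-sensing partners of the myocardin family, through a DNA element called the CArG box, and their products are high in smooth muscle and in activated fibroblasts. Srf also acts with MAP kinase-regulated partners on early genes.

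The sequence just upstream of each gene was read from RefSeq promoter windows (GRCm38.p6), which run from 250 bases before to 50 bases after a start site. Windows were found for 9 of the 10 genes, Srf included, and Tagln had none in the table. The CArG box was searched only in the strict form CCWWWWWWGG, where W is A or T, so near matches were not counted. In that form it was found in 2 of the 9 windows, those of Vcl and Srf, and in 1.63% of all 32851 windows. TTCNNNGAA, the form of site that Stat3 is known to bind, was in 0 of the 9 and in 8.30% of all. TATAAA, searched on both strands like the others, was in the Srf window only and in 13.6% of all, and it overlapped no CArG box there. Counted from the start site, the boxes of Srf lay at -82 to -73 and -62 to -53 and that of Vcl at -227 to -218. A match is a description of letters and not a measured site, and a missing match says nothing of binding. The Vcl window at chr14:20929148-20929447 (plus strand) is shown because it holds the box, in capitals, and the Acta2 window at chr19:34255324-34255623 (minus strand) because Acta2 is the gene whose arrays did not overlap between the genotypes. The boxes of Srf are printed alone. No capitals mark the Acta2 window, where none of the 3 motifs was found in the form searched. It does hold ccctatatgg and ccttgtttgg, which come close to the strict CArG form, so a lack of CArG-like letters is not shown.
Vcl: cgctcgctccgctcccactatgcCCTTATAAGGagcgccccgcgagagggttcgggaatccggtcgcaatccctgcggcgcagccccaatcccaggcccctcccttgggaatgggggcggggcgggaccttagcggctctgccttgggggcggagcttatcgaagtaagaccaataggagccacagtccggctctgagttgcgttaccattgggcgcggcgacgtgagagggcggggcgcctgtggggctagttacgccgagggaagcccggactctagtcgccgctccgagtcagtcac
Acta2: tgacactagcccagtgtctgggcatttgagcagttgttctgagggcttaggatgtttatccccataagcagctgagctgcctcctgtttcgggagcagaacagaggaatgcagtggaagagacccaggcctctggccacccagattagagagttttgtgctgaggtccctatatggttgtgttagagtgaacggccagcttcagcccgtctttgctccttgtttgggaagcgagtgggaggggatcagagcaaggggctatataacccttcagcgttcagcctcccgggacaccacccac
Srf box 1: CCATATAAGG
Srf box 2: CCATAAAAGG

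Each value is a log2 expression level of 1 probe set on 1 array, so a difference of 1 is a 2-fold difference. A probe set was tested where it reached log2 5, read here as the level near background, on at least 2 arrays. This held for 10 of the 12 probe sets and 8 of the 9 genes. All 10 lay at 6.01 or above on every array, so none passed through 1 group alone. Cnn1 (calponin 1, which binds actin in smooth muscle) read 2.51 to 2.76 in Stat3 KO arrays and 2.57 to 2.78 in Stat3 WT arrays, below the filter on every array. The second Tpm2 probe set read 2.97 to 6.86, above 5 only in untreated Stat3 KO replicate 2, and was not tested.

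The arrays differed most by replicate number, which the titles give as 02 and 03 and the labels do not explain. Arrays of one number and different groups correlated at 0.9325 to 0.977, against 0.8694 to 0.9258 for the arrays of 1 group. With number as a term limma called 41.1% of the 6756 tested probe sets. A measure of RNA degradation, the 3′ minus 5′ signal of actin, lay between 0.72 and 1.11 for the replicate 3 arrays, against 0.33 to 0.53 for those of replicate 2. Stat3 KO OSM replicate 2 had the lowest actin control, 14.63 at the 3′ end against 15.29 to 15.54 on the other replicate 2 arrays. Stat3 itself read 8.70 and 9.17 with OSM and 8.08 and 7.81 without in Stat3 KO cells, against 11.82 and 11.94 with OSM and 10.11 and 10.50 without in Stat3 WT cells (replicates 2 and 3 in turn, as in every such list below). A second Stat3 probe set read 2.76 to 2.94 on 3 Stat3 KO arrays but 7.30 in OSM replicate 3, against 9.80 to 12.57 in Stat3 WT arrays. Of 12 fibroblast markers 8 read 7 or more on every array. Their summed level was 17.20 to 17.81 in Stat3 KO arrays and 16.98 to 18.16 in Stat3 WT arrays on the log2 scale. Of 6 smooth muscle markers 4 were on the array and only smoothelin (Smtn) reached 7 throughout. The defining smooth muscle markers Myh11 and Des stayed at 1.94 to 3.26 on all arrays. The summed level of the smooth muscle list was 9.01 to 10.57 in Stat3 KO arrays and 8.21 to 10.07 in Stat3 WT arrays. The other lists held Actc1 (by 1 of its probe sets) and the muscle transcription factor gene Myog (7.20 to 9.66) from skeletal and heart muscle, Csf1r from leukocytes (by 1 of its probe sets), and no endothelial or epithelial marker at that level. The Actc1 probe set at that level has the suffix f and can share signal with other actins. It read 10.74 to 11.12 in Stat3 KO arrays and 10.48 to 10.95 in Stat3 WT arrays. The other Actc1 probe set read 2.44 to 3.13 on all arrays. The summed level of the skeletal and heart muscle markers was 11.22 to 11.40 in Stat3 KO arrays and 10.96 to 11.19 in Stat3 WT arrays. Most of that sum was the brighter Actc1 probe set. The part of these markers in the results was not tested.

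**Figure D1:**
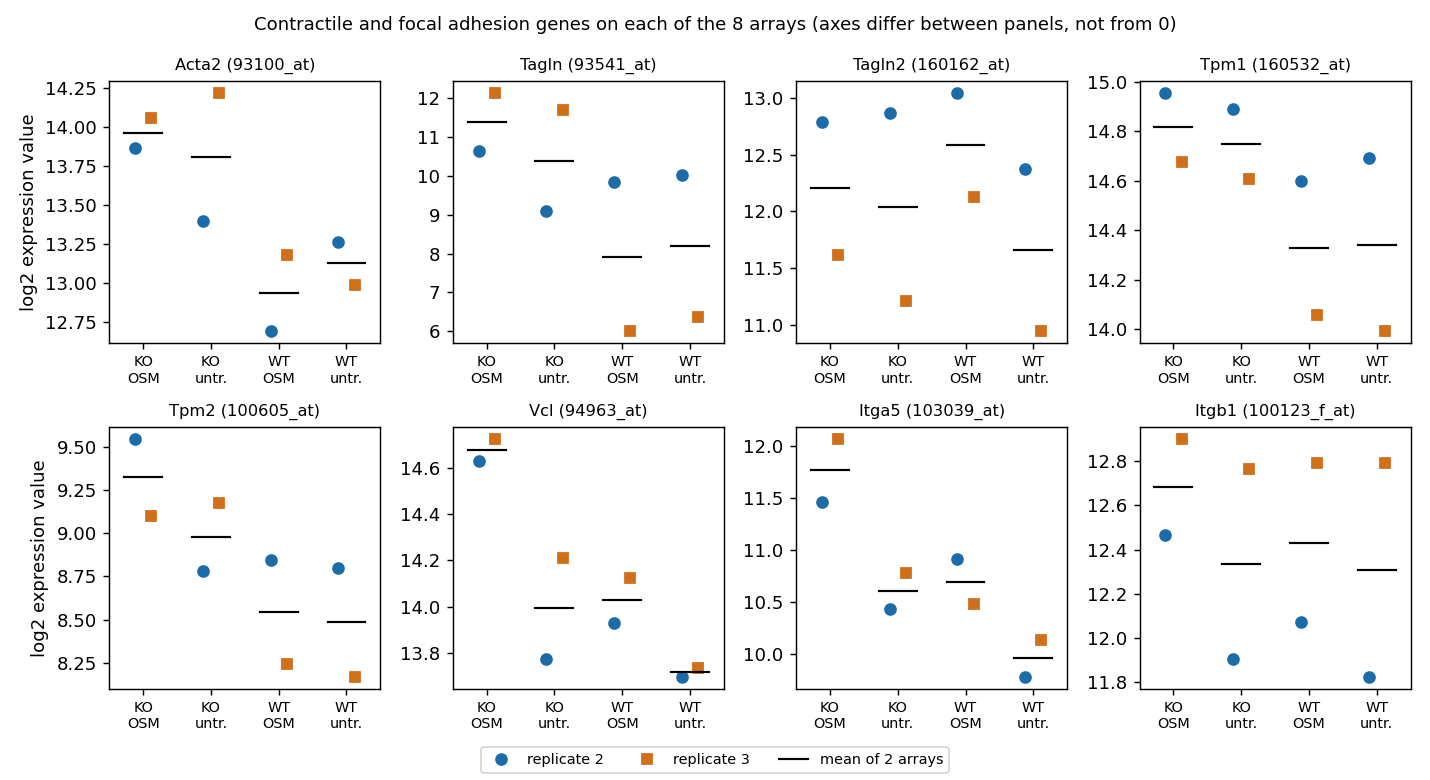
Log2 expression value (vertical axes, 1 panel per gene, scales differ) of the probe set with the highest mean for 8 genes in the 4 groups. Circles are replicate 2, squares replicate 3 and lines the mean of 2 arrays; all 4 Acta2 points of Stat3 KO cells (13.40 to 14.22) lie above those of Stat3 WT cells (12.70 to 13.27), and Tagln spreads most (6.01 to 12.14).

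Acta2, the smooth muscle actin that marks myofibroblasts (chr19:34240336-34255585), was higher on each Stat3 KO array than on every Stat3 WT array. It read 13.86 and 14.06 with OSM and 13.40 and 14.22 without in Stat3 KO cells. In Stat3 WT cells it read 12.70 and 13.18 with OSM and 13.27 and 12.99 without. The gap between the lowest Stat3 KO array and the highest Stat3 WT array was small beside the spread within a group. Such separation with Stat3 KO above Stat3 WT held for 1.78% of all probe sets, and for Acta2 alone among the 10 probe sets described here. The difference averaged over OSM and untreated cells was 0.85 ± 0.24 (SE), with a 95% interval of 0.26 to 1.45. It did not pass limma over all probe sets (adjusted p = 0.643). Within treatments it was 1.03 ± 0.35 with OSM and 0.68 ± 0.35 without (SE, adjusted p = 1 for both in limma). The untreated difference was 1.23 in replicate 3 and 0.13 in replicate 2, so nearly all of it came from 1 number. In RNA of a whole culture, more cells that make Acta2 and more Acta2 RNA per cell cannot be told apart, and this holds for each gene below.

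Vcl encodes vinculin, which joins talin and actin at focal adhesions (chr14:20929383-21033676). Its brighter probe set read 14.63 and 14.72 with OSM and 13.78 and 14.21 without in Stat3 KO cells. In Stat3 WT cells it read 13.93 and 14.13 with OSM and 13.70 and 13.74 without. The OSM-treated Stat3 KO arrays were the highest 2 of the 8, while untreated Stat3 KO and OSM-treated Stat3 WT arrays overlapped. The genotype difference averaged 0.46 ± 0.16 (SE, limma adjusted p = 0.727). The second Vcl probe set differed by 0.80 ± 0.36 (SE, limma adjusted p = 0.895).

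Itga5, the integrin subunit that pairs with Itgb1 to bind fibronectin (chr15:103344286-103366791), read 11.46 and 12.07 with OSM and 10.43 and 10.78 without in Stat3 KO cells. In Stat3 WT cells it read 10.91 and 10.48 with OSM and 9.78 and 10.14 without. The OSM-treated Stat3 KO arrays were above all others and the untreated Stat3 WT arrays below all others, with the remaining groups overlapping. The genotype difference averaged 0.86 ± 0.25 (SE), with a 95% interval of 0.24 to 1.47 (limma adjusted p = 0.656). Its partner Itgb1, the shared beta subunit of the fibronectin and collagen receptors (chr8:128685654-128733579), read 11.91 to 12.90 in Stat3 KO arrays and 11.83 to 12.79 in Stat3 WT arrays. Its averaged difference was 0.14 ± 0.35 (SE), with a 95% interval of -0.70 to 0.98. With the replicate number as a block the interval was -0.20 to 0.48, against 0.34 to 1.38 for Itga5, so the 2 intervals overlapped. The difference between the 2 genes was not tested. The other Itgb1 probe set gave -0.10 ± 0.22 (SE), and limma adjusted p was 0.999 for both. The names of the Itgb1 probe sets (suffixes f and r) mark designs that can share probes with related transcripts or that missed a selection rule, so their values are less certain.

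The tropomyosins lie along actin filaments and set which myosins can use them. Tpm1 (chr9:67022590-67049672) read 14.96 and 14.68 with OSM and 14.89 and 14.61 without in Stat3 KO cells, against 14.60 and 14.06 with OSM and 14.69 and 13.99 without in Stat3 WT cells. Within a replicate number each Stat3 KO array exceeded both Stat3 WT arrays, though the genotypes overlapped across numbers. Tpm2 (chr4:43513726-43523583) read 9.55 and 9.10 with OSM and 8.78 and 9.18 without in Stat3 KO cells, against 8.85 and 8.24 with OSM and 8.80 and 8.17 without in Stat3 WT cells. In replicate 3 both Stat3 KO arrays lay above both Stat3 WT arrays, whereas in replicate 2 only the OSM-treated one did. The averaged differences were 0.45 ± 0.23 for Tpm1 and 0.64 ± 0.29 for Tpm2 (SE, limma adjusted p = 0.966 and 0.909).

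Tagln2, the transgelin of many non-muscle cells (chr1:172500246-172507375), showed no averaged difference between the genotypes but a wide interval, 0.00 ± 0.56 (SE) and -1.36 to 1.36 at 95% (limma adjusted p = 0.999). With the replicate number as a block the interval narrowed to -0.40 to 0.40. It read 12.79 and 11.62 with OSM and 12.87 and 11.21 without in Stat3 KO cells, against 13.05 and 12.12 with OSM and 12.38 and 10.94 without in Stat3 WT cells. The 4 arrays of replicate 3 were all below the 4 of replicate 2, as were those of 16.5% of all probe sets.

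Tagln, the smooth muscle transgelin SM22 alpha that binds actin (chr9:45929628-45936058), varied far more than the other genes, over 6.13 log2 units. It read 10.65 and 12.14 with OSM and 9.09 and 11.69 without in Stat3 KO cells. In Stat3 WT cells it read 9.83 and 6.01 with OSM and 10.03 and 6.37 without. In replicate 3 the genotypes stood far apart, with Stat3 KO higher by 6.13 with OSM and 5.32 without, 70.1-fold and 40.0-fold. The Stat3 WT values there, 6.01 and 6.37, are not far above log2 5, the level read as near background, so the fold sizes are inexact. In replicate 2 the genotypes did not separate, since the Stat3 KO minus WT difference was 0.82 with OSM and -0.94 without. The pooled difference of 2.83 ± 1.24 (SE, limma adjusted p = 0.884) therefore stands for neither number.

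Whether the genotype difference itself depended on the number was tested with a fit chosen after the Tagln values were seen. For Tagln the Stat3 KO minus WT difference was 5.79 ± 0.43 (SE) greater in replicate 3 than in replicate 2 (limma adjusted p = 0.0126). It was the only one of the 10 probe sets that passed, where 5.6% of all probe sets did. Adjusted p was 0.328 to 0.867 for the other 9. The fit has few residual degrees of freedom. Each genotype at each number holds 1 OSM-treated and 1 untreated array, so the spread is how unevenly OSM acted between the numbers. It does not measure how the genotype difference would vary between independent cultures. Leaving out any 1 Stat3 KO array kept the call for Tagln (adjusted p = 0.0211 to 0.0256). Leaving out any 1 Stat3 WT array ended it (adjusted p = 0.0989 to 0.115) with the difference still 5.71 to 5.87, and 0 probe sets then passed in all. Without the filter on low values the adjusted p was 0.0581.

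**Figure D2:**
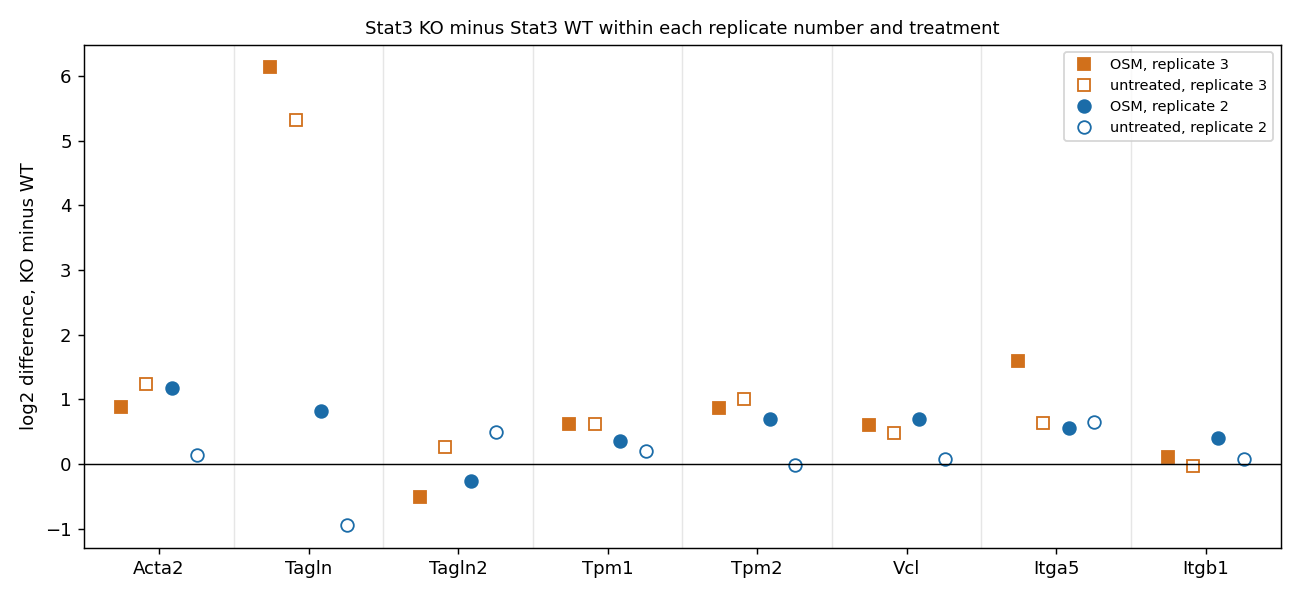
Stat3 KO minus Stat3 WT log2 difference (vertical axis) of 8 genes within each replicate number, filled symbols with OSM and open symbols untreated, squares replicate 3 and circles replicate 2. Tagln reaches 5.32 and 6.13 in replicate 3 and lies at 0.82 and -0.94 in replicate 2, while Acta2, Tpm1, Vcl and Itga5 lie above 0 at all 4 points.

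Over the 8 tested genes, Stat3 KO exceeded Stat3 WT in 7 on average, with a median difference of 0.55, where 46.5% of all tested probe sets lay above 0 and their median was -0.03. The planned limma fit called 0 of the 8 genes in the averaged difference, against 0.0148% of all probe sets (1 probe set, that of the chemokine gene Cx3cl1, named after its value was seen). At an unadjusted p under 0.05 it was 3 of the 8 genes, Acta2, Itga5 and Vcl, each higher in Stat3 KO, where 2.0% of all probe sets were higher at that level. With the replicate number as a block 0.429% of all probe sets were called (29 probe sets, and 0 to 5 when any 1 array was left out) and again 0 of the 8 genes, whose adjusted p-values were 0.135 to 0.997. At an unadjusted p under 0.05 the block gave 5 of the 8 genes, where 6.56% of all probe sets were higher. Acta2, Itga5, Tpm1 and Vcl, 4 of the 8 genes, were higher in Stat3 KO in all 4 matched differences (with and without OSM, in either number), as were 9.98% of all probe sets. Of the 8 genes 0 were lower in all 4, against 14.1% of all probe sets. After renewed quantile normalization 6 of the 8 genes were higher in all 4, with Itgb1 and Tpm2 added, against 11.2% of all probe sets in that setting.

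In untreated cells the 8 genes all lay above 0 on average over the numbers, with differences of 0.03 to 2.19 and a median of 0.45. Of all probe sets 43.5% did and their median was -0.06. Within replicate 2 alone 6 of the 8 genes lay above 0 with a median of 0.11, against 44.9% of all probe sets. Within replicate 3 it was 7 of the 8 with a median of 0.63, against 42.3%. The planned fit called 0.0% of all probe sets in untreated cells and 0 of the 8 genes. At an unadjusted p under 0.05 it was again 0 genes, against 2.24% of all probe sets. In OSM-treated cells 7 of the 8 genes lay above 0, with a median of 0.71 against 0.00 over all probe sets. The fit called 0 of the 8 genes, where 0.0148% of all probe sets passed (Cx3cl1 again), and 3 genes had an unadjusted p under 0.05, where 1.47% of all probe sets were higher at that level. Tagln2 was the exception, at -0.38 ± 0.79 (SE, limma adjusted p = 1), that is, lower in Stat3 KO cells.

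OSM was followed by higher Itga5 and Vcl in both genotypes and both numbers. For Itga5 the OSM minus untreated difference was 1.29 and 1.03 in replicates 3 and 2 of Stat3 KO cells and 0.34 and 1.13 in those of Stat3 WT cells. Fitted, the OSM effect was 1.16 ± 0.36 for Stat3 KO cells and 0.74 ± 0.36 for Stat3 WT cells (SE, limma adjusted p = 1 for both). For Vcl it was 0.51 and 0.85 in replicates 3 and 2 of Stat3 KO cells and 0.39 and 0.23 in those of Stat3 WT cells, with fitted values of 0.68 ± 0.22 and 0.31 ± 0.22 (SE, limma adjusted p = 1 for both). These 2 of the 8 genes were higher with OSM in all 4 matched differences, against 13.4% of all probe sets, and 0 of the 8 were lower in all 4, against 15.7%. Counts of 2 and 0 among 8 genes lie close to those shares. Under the replicate block the standard errors of the OSM effects were 0.29 for Itga5 and 0.16 for Vcl. Limma adjusted p was then 0.369 to 0.799 for the 2 genes over both genotypes. The second Vcl probe set was also higher at all 4 points, by 0.32 to 1.90.

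The other genes showed smaller or less even differences after OSM. Acta2 differed by 0.15 ± 0.35 for Stat3 KO cells and -0.19 ± 0.35 for Stat3 WT cells (SE), with a different sign in each number of both genotypes. Tpm1 differed by 0.07 ± 0.32 for Stat3 KO cells and -0.01 ± 0.32 for Stat3 WT cells, and Tpm2 by 0.34 ± 0.41 and 0.06 ± 0.41 (SE). Tagln2 was 1.18 and 0.67 higher with OSM in replicates 3 and 2 of Stat3 WT cells, a fitted difference of 0.93 ± 0.79 (SE), and differed by 0.41 and -0.09 in those of Stat3 KO cells. Itgb1 differed by 0.35 ± 0.49 for Stat3 KO cells and 0.12 ± 0.49 for Stat3 WT cells (SE). Tagln was higher with OSM in Stat3 KO cells, by 0.45 and 1.56 in replicates 3 and 2, and lower in Stat3 WT cells, by -0.36 and -0.19. Fitted, its OSM effect was 1.01 ± 1.76 for Stat3 KO cells and -0.28 ± 1.76 for Stat3 WT cells (SE). This standard error includes the shift of Tagln between the numbers, which cancels in a matched difference. The planned fit called 0 of the 8 genes and 0.0% of all probe sets for OSM in either genotype. At an unadjusted p under 0.05 it was 2 genes in Stat3 KO cells, Itga5 and Vcl, where 1.54% of all probe sets were higher, and 0 in Stat3 WT cells, where 1.87% were in either direction. Under the replicate block it was 2 genes in each genotype, Itga5 and Vcl in Stat3 KO cells and Itga5 and Tagln2 in Stat3 WT cells. Of all 6756 probe sets 746 and 485 then had such a p, in either direction. After adjustment 0 of the 8 genes passed under the block. Stat3 KO OSM replicate 2 enters the Stat3 KO values, and the differences of replicate 3 are those without it.

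The test of the difference between the genotypes' OSM effects passed for 0 of the 8 genes and for 0.0% of all probe sets (limma adjusted p = 1 for each gene). At an unadjusted p under 0.05 it was 0 genes and 0.429% of all probe sets. The Stat3 KO minus Stat3 WT difference of OSM effects was 0.43 ± 0.51 for Itga5, 0.37 ± 0.31 for Vcl, 0.34 ± 0.49 for Acta2 and -0.76 ± 1.12 for Tagln2 (SE). For Itga5 its 95% interval ran from -0.81 to 1.66, a span wider than the OSM effect in either genotype. Under the replicate block the difference of OSM effects for Tagln2 was -0.76 ± 0.32 (SE, limma adjusted p = 0.913). There 0 of the 8 genes had an unadjusted p under 0.05, where 248 of 6756 probe sets did.

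**Figure D3:**
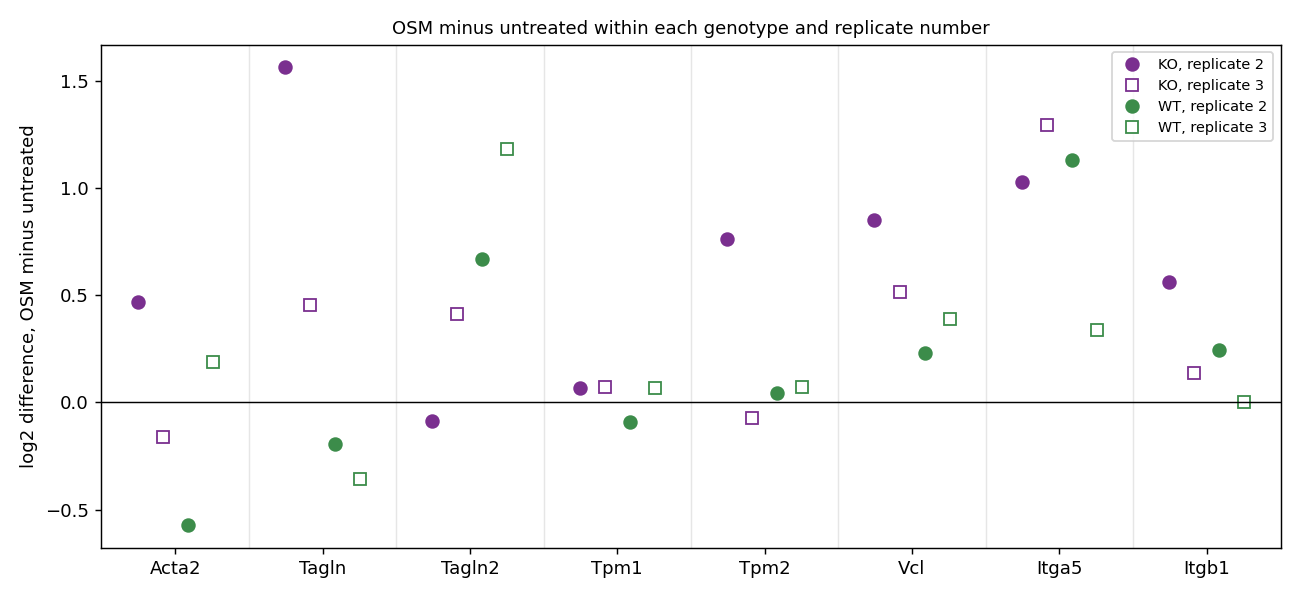
OSM minus untreated log2 difference (vertical axis) of 8 genes, Stat3 KO in purple and Stat3 WT in green, filled circles replicate 2 and open squares replicate 3. Itga5 (0.34 to 1.29) and Vcl (0.23 to 0.85) lie above 0 at all 4 points, and Tagln lies above 0 in Stat3 KO and below it in Stat3 WT cells.

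For the replicate number itself limma called 3 of the 8 genes, and for 2 of them, Itgb1 and Tagln2, the arrays did not overlap between the numbers. For Itgb1 the replicate 3 arrays (12.76 to 12.90) all lay above those of replicate 2 (11.83 to 12.47), as in 22.0% of all probe sets, with a difference of 0.74 ± 0.14 (SE) with number as a term (limma adjusted p = 0.012). For Tagln2, at 10.94 to 12.12 in replicate 3 against 12.38 to 13.05 in replicate 2, it was a difference of -1.30 ± 0.16 (SE, limma adjusted p = 0.00522). Tpm1 was lower in replicate 3 by -0.45 ± 0.11 (SE, limma adjusted p = 0.0267), though its ranges of 13.99 to 14.68 and 14.60 to 14.96 overlapped. These 3 of 8 genes compare with 41.1% of all probe sets. The actin 3′ minus 5′ signal moved with the number and, within replicate 3, was higher in Stat3 WT arrays, as given above. Its part in these differences and in the Tagln values was not tested.

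Related genes from fixed lists were set beside these. Of 5 other actins 4 were tested, with a median averaged genotype difference of 0.13 and 4 of 4 above 0. Of 18 other contractile genes 9 were tested, with a median of 0.13 and 5 above 0. Of 27 focal adhesion adaptors and kinases 19 were tested, with a median of 0.13 and 12 above 0. Of 16 other integrins 6 were tested, with a median of 0.20 and 5 above 0, and of 23 genes that control actin and Srf 16 were tested, with a median of 0.07 and 8 above 0. The median of all probe sets was -0.03, and 0 genes of these lists passed in any of the comparisons, with or without the replicate block, where the block called 0.104% of all probe sets for the genotype difference with OSM, 0.0148% for OSM in Stat3 WT cells and 0.0296% for OSM in Stat3 KO cells.

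The genes of each list with the smallest p are named here although they did not pass. Enah, which extends actin filaments at adhesions, read 8.58 and 7.83 with OSM and 7.78 and 7.80 without in Stat3 KO cells, against 9.14 and 10.13 with OSM and 9.14 and 9.85 without in Stat3 WT cells. Its Stat3 KO arrays were all below the Stat3 WT arrays, as were those of 3.67% of all probe sets, with an averaged difference of -1.57 ± 0.35 (SE, limma adjusted p = 0.456). Another Enah probe set, dim and with the suffix f, did not separate them, at 6.10 to 6.36 in Stat3 KO arrays and 6.02 to 6.25 in Stat3 WT arrays. So dim a probe set may not show a difference, and the suffix makes its values less certain. The Enah relative Vasp differed by 0.48 ± 0.23, the integrin subunit Itgb5 by 0.96 ± 0.48 and Itgav by -0.15 ± 0.16 (SE). Tgfb1, the growth factor that induces Acta2 in fibroblasts, differed by 0.76 ± 0.30, and the formin Diaph1, which nucleates actin filaments, by -0.58 ± 0.25 (SE). The LIM proteins Csrp1 and Csrp2 differed by 0.74 ± 0.43 and 1.01 ± 0.56, and the actins Actc1 and Actg2 by 0.24 ± 0.21 and 0.15 ± 0.23 (SE). Limma adjusted p was 0.823 to 0.999 for these 9. The actin probe sets carry the suffix f, and signal from the near-identical actin transcripts cannot be told apart there.

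**Figure D4:**
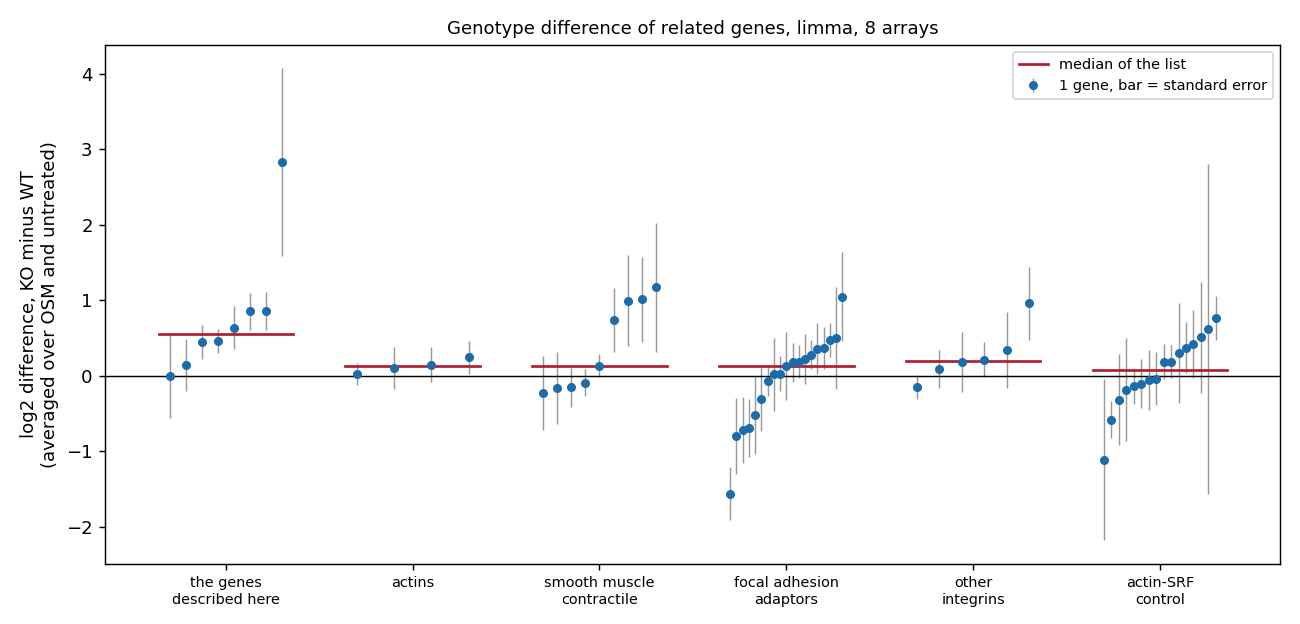
Averaged Stat3 KO minus Stat3 WT log2 difference (vertical axis) of each tested gene, in 6 lists along the horizontal axis, with limma standard errors as bars and list medians as red lines. The genes described here have a median of 0.55 and the other lists medians of 0.07 to 0.20, and 0 genes shown passed the test.

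In the fit of genotype by number that singled out Tagln, 6 related genes also passed, chosen for mention after their values were seen. The limit of that fit's spread, given above, holds for them as well. Csrp1 (1.90 ± 0.22), the non-muscle myosin heavy chain Myh9 (1.45 ± 0.19), the paxillin relative Tgfb1i1 (1.84 ± 0.34), the integrin subunit Itga3 (2.23 ± 0.22) and Ctgf (10.42 ± 1.22), a matricellular gene driven by Srf and Yap, had a larger Stat3 KO minus WT difference in replicate 3 than in replicate 2 (SE). Csrp2 had a smaller one (-2.01 ± 0.21, SE). Limma adjusted p was 0.0157 to 0.0499 for these 6, and as for Tagln 0 probe sets passed without any 1 of the Stat3 WT arrays. Ctgf read 8.71 and 11.88 with OSM and 3.47 and 10.38 without in Stat3 KO cells, against 10.04 and 4.33 with OSM and 11.33 and 6.27 without in Stat3 WT cells. Like Tagln it was higher in Stat3 KO in replicate 3. In replicate 2 it was lower there, and values under 5 make the size of its difference inexact. The fibroblast markers Dcn, Lum and Pdgfra passed in the other direction (-2.57 ± 0.23, -5.62 ± 0.33 and -2.0 ± 0.32, SE, adjusted p = 0.00986 to 0.0371). Lum read 2.56 to 3.29 in Stat3 KO arrays, against 8.43 and 8.04 in replicate 3 and 2.61 and 2.56 in replicate 2 of Stat3 WT cells with and without OSM. The part of these markers in the Tagln values was not tested.

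The genes were also compared with each other once the mean of each number was removed. Over the 8 arrays Acta2 correlated at 0.94 with Tpm1, 0.90 with Tpm2 and 0.80 with Tagln, and Vcl at 0.92 with Itga5, 0.83 with Tpm2 and 0.81 with Itgb1. Tpm2 also correlated at 0.75 with Itga5. Tagln2 correlated at -0.16 to 0.38 with the other 7. The genes whose pattern was most like Acta2 were Smtn (0.96), the quinone reductase gene Nqo1 (0.95) and the prion protein gene Prnp (0.95). Those most like Vcl were the interferon-induced GTPase genes Irgm1 (0.98) and Iigp1 (0.97) and the RNA-binding protein gene Zfp36l2 (0.98). Smtn, a stress fibre protein, read 10.43 and 8.54 with OSM and 10.30 and 8.47 without in Stat3 KO cells, against 8.79 and 7.19 with OSM and 9.89 and 7.18 without in Stat3 WT cells. It was higher in Stat3 KO within each number and treatment. The probe sets of Nqo1, Zfp36l2 and Iigp1 carry the suffixes f or r and are less certain. These are Pearson correlations over 8 arrays that share lines, treatments and normalization, and they are given as a description.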

How the data were processed

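Affymetrix arrays measured biotin-labelled RNA of the Stat3 KO and Stat3 WT lines. The authors deposited log2 expression, 1 value per probe set and array, and the submitters' processing notes name GCRMA and the affy package. The sources used here do not give their versions or say which arrays were normalized as one. Because GCRMA lowers the values of dim probe sets, a log2 difference from a dim group can be enlarged. Array values carry no counts, so the number of arrays limits the precision.

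Of 12488 probe sets 66 controls were set aside. The platform annotation gives 1 symbol for 10833, several for 396 and none for 1193, and 10817 of the first kind matched a gene ID of the RefSeq table (GRCm38.p6). The titles give both group and replicate number. Separate cultures are nowhere stated for the 2 arrays of a group, so a p-value rests on a spread that may be technical.

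The main test was limma 3.58.1 (R 4.3.3, lmFit and eBayes with an intensity trend, 4 group means, 4 residual degrees of freedom, two-sided) on probe sets at log2 5 or more on at least 2 arrays. All 6756 kept probe sets entered the Benjamini-Hochberg adjustment (threshold 0.05), and a gene with several kept probe sets is given by the one highest on average. The script was tested on simulated data. The ± beside a log2 difference is its limma standard error.

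Pairing by replicate number was checked ahead of any comparison of fits. The replicate 3 minus replicate 2 differences correlated at 0.589 to 0.9106 across probe sets in every pair of groups, so number was treated as pairing the arrays on the evidence of the data, since the labels do not say what it marks. The planned fit has no block, and number as a block is an alternative with 3 residual degrees of freedom. A fit with genotype by treatment and genotype by number terms was added after the data were seen.

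The genes and lists were chosen with earlier results of these data known. Named genes are all probe sets of the 10 genes, Stat3, genes of the related lists that passed, the 2 of each list with the smallest p for the averaged genotype difference, markers of other cell types at log2 7 or more on all arrays, and the 3 genes most like Acta2 and like Vcl. Exceptions are named as chosen after their values were seen. The alternatives were the replicate block, no filter, a filter at log2 7, no trend, renewed quantile normalization, median centring, only the groups compared, values under 5 set to 5, a gene's other probe set, and leave-one-out fits over the arrays. Protein sequences were not used here.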

Additional observations from a re-analysis of the deposited data

Results flagged for a closer look

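The Stat3 KO minus WT difference of Tagln was 5.79 greater in replicate 3 than in replicate 2, by a test of the difference between the numbers chosen after the values were seen. Tagln also moved with OSM in opposite directions in the genotypes, up in both numbers of Stat3 KO and down in both of Stat3 WT cells, and the difference of OSM effects was 1.28 ± 2.49 (SE, limma adjusted p = 1), which did not pass. For Tagln2 the Stat3 KO minus WT difference was below 0 with OSM (-0.51 and -0.26 in replicates 3 and 2) and above 0 without it (0.26 and 0.50). The difference of its OSM effects was -0.76 ± 1.12 (SE, limma adjusted p = 1) and did not pass. Under the replicate block it was -0.76 ± 0.32 (SE, limma adjusted p = 0.913), which did not pass. The dimmer Itgb1 probe set showed the reverse, 0.12 and 0.09 with OSM and -0.10 and -0.50 without, with a difference of OSM effects of 0.40 ± 0.44 (SE, limma adjusted p = 1), which did not pass either.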

How the results depend on the processing

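The probe sets of the genes described above that passed numbered 0 in each of the 6 comparisons under every setting run, leaving out 1 array included, and the replicate block changed no call of theirs (lowest adjusted p = 0.135, Acta2 in the averaged genotype difference). In this balanced design the replicate block, either change of filter, no trend and only the groups compared leave a gene's difference unchanged. Setting low values to the filter level changed none of the tested genes, which lay above it on every array. Only renewed quantile normalization, median centring and a gene's other probe set could turn a direction. Many of the 396 values for single genes under settings other than leaving out an array could therefore not turn. Of the 396, 390 kept their direction and 6 turned. These were Tagln2 in the averaged genotype difference after renewed quantile normalization (0.0295), Itgb1 with its other probe set (-0.10 averaged, -0.30 in untreated cells and -0.0009 for OSM in Stat3 WT cells), and Tpm1 after median centring (0.0511 for OSM in Stat3 WT cells and -0.0315 for the interaction).

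Counts over all probe sets moved more. The averaged genotype difference had 29 calls with the replicate block and 3 without the filter, against 1 as planned. With 1 array left out it had 0 to 1, and 0 to 5 with the block as well. The genotype difference with OSM had 7 calls with the block and 0 without the trend, with only the groups compared, after renewed quantile normalization, median centring or setting values under 5 to 5, against 1 as planned. With 1 array left out it had 0 to 1, and 0 to 2 with the block as well. With the block OSM had 2 calls in Stat3 KO (Hk2 and Ereg) and 1 in Stat3 WT cells (Hk2), and it had 1 in Stat3 KO cells with values under 5 set to 5 (Ereg), against 0 as planned. The genotype by number fit called 378, 7 without the filter and 0 to 251 with 1 array left out, and the Tagln difference in it was 5.79 without the filter (adjusted p = 0.0581) and 5.23 to 6.34 with 1 array left out. It called 180 to 251 without any 1 Stat3 KO array and 0 without any 1 Stat3 WT array, and the cause was not tested.

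With 1 array left out and number as a block, 18 of 48 single-gene differences turned in at least 1 fit. For the OSM effect in Stat3 KO cells these were Acta2 (-0.19 to 0.50), Tagln (-1.29 to 3.31), Tagln2 (-0.0836 to 0.41), Tpm1 (-0.0468 to 0.18) and Tpm2 (-0.13 to 0.82). For the OSM effect in Stat3 WT cells these were Acta2 (-0.58 to 0.20), Itgb1 (-0.0254 to 0.27), Tagln (-2.26 to 1.71), Tpm1 (-0.18 to 0.15) and Tpm2 (-0.15 to 0.27). For the interaction these were Acta2 (-0.0456 to 0.73), Itga5 (-0.0104 to 0.86), Tagln (-1.02 to 3.58), Tpm1 (-0.0838 to 0.24) and Tpm2 (-0.19 to 0.76). For the untreated genotype difference these were Itgb1 (-0.12 to 0.17) and Tagln (-0.11 to 4.49). For the averaged genotype difference this was Tagln2 (-0.13 to 0.12). The numbers of arrays limit every value, and probe sets under log2 5 give inexact differences.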
